A study of Drosophila melanogaster with 23 samples.

Results

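The genes described here encode enzymes with which the fly gut breaks down protein and starch. They were chosen by symbol alone: the names that begin with Jon and a number, end in Try, or begin with Mal-A, Mal-B or Amy. The rule found 36 of the 11152 features in the table, namely 15 Jonah proteases, 9 trypsins, 10 maltases and 2 amylases. Of these, 35 reached a CPM (a count scaled to the size of its library) of 0.5 in every library and were tested, and the protease Jon65Aii did not. All flies were Drosophila melanogaster of the w1118 strain, a white-eyed laboratory stock, and were virgins. Each library came from a pool of 10 whole frozen flies of 1 sex that had been moved as young adults to 18, 24 or 28 °C. There were 23 libraries, 3 of males at 28 °C and 4 in each of the other groups. Freezing was at 45 days of age for 18 and 24 °C but at 35 days for 28 °C, so in any comparison with 28 °C a temperature effect and an age effect cannot be told apart. The comparison of 24 with 18 °C is within 1 age, and as far as the labels say the groups otherwise differed only in sex and temperature.

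Jonah proteases are chymotrypsin-like serine proteases made by enterocytes, the absorptive cells of the midgut, and trypsins cut proteins after basic residues in the same gut lumen. Amylases cut starch into short chains, and maltases are alpha-glucosidases that release glucose from maltose and similar sugars. Most of these enzymes belong to families that arose by tandem duplication, and many are known to vary with diet.

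The 36 members sat in clusters of the genome. In coordinates of the dm6 build, 20 lay on chromosome arm 2R, where Mal-A1 to Mal-A8 are neighbours, all 9 trypsins form another cluster, and Amy-p and Amy-d are a close pair. Mal-B1 (2L, 11847226 to 11849169) and Mal-B2 (2L, 11849958 to 11852881) are neighbours on the plus strand, and Jon25Biii, Jon25Bii and Jon25Bi lie together on 2L between 4949941 and 4955144. The Jon65A genes lie on 3L between 6039155 and 6054443, and the Jon99C genes on 3R between 29922216 and 29926189. Duplicated genes can share reads. Expected counts are estimates that need not be whole, and 12 of the 36 members were not whole numbers in at least 20 libraries. The counts of Amy-p and Amy-d added up to a whole number, within 0.03, in 23 of 23 libraries, as did those of Mal-A1 with Cyp4e1, a P450 gene that overlaps its end, and those of alphaTry, betaTry, gammaTry and deltaTry with their neighbours CG30025 and CG30031. How reads were split within each of these sets is therefore uncertain, and values for the sums are given below.

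Libraries held 17727137 to 23194619 expected counts each. Replicates varied more for these genes than for most: the median coefficient of variation of the members within a group was 17.3% to 41.98%, against 7.87% to 11.2% for all tested features. Some libraries stood apart. Male 24 °C replicate 1, which also had the lowest total, was the lowest of its group for 33 of 35 members, female 28 °C replicate 1 for 29, and male 18 °C replicate 3 was the highest of its group for 21 and the lowest for 11. Labels of sex held throughout: the summed CPM of Yp1, Yp2 and Yp3, which encode yolk proteins, was at least 4348 in every female library and at most 70.7 in every male library.

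The mean share of all counts that came from the 36 members was higher at each warmer temperature. It was 0.631% ± 0.0896 (SD, n = 4) in females at 18 °C, 1.15% ± 0.195 at 24 °C and 2.16% ± 0.407 at 28 °C. In males it was 0.848% ± 0.287, 1.12% ± 0.437 and 2.07% ± 0.15 (n = 3 at 28 °C). In whole flies, fewer cells of a type and less RNA per cell cannot be told apart. Summed amylase CPM stood at 380.2 ± 77.5, 441 ± 49.1 and 3851 ± 1002 in females and at 1067 ± 341, 1564 ± 819.7 and 5909.6 ± 864 in males at 18, 24 and 28 °C. Summed trypsin CPM stood at 1461 ± 146, 3073 ± 538 and 3294 ± 768 in females and at 2351 ± 956, 2865 ± 1121 and 3349.6 ± 271 in males. In females the amylase sums of 18 and 24 °C lay close together and those of 28 °C far above, whereas the trypsin sums of 24 °C already lay above those of 18 °C.

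**Figure D1:**
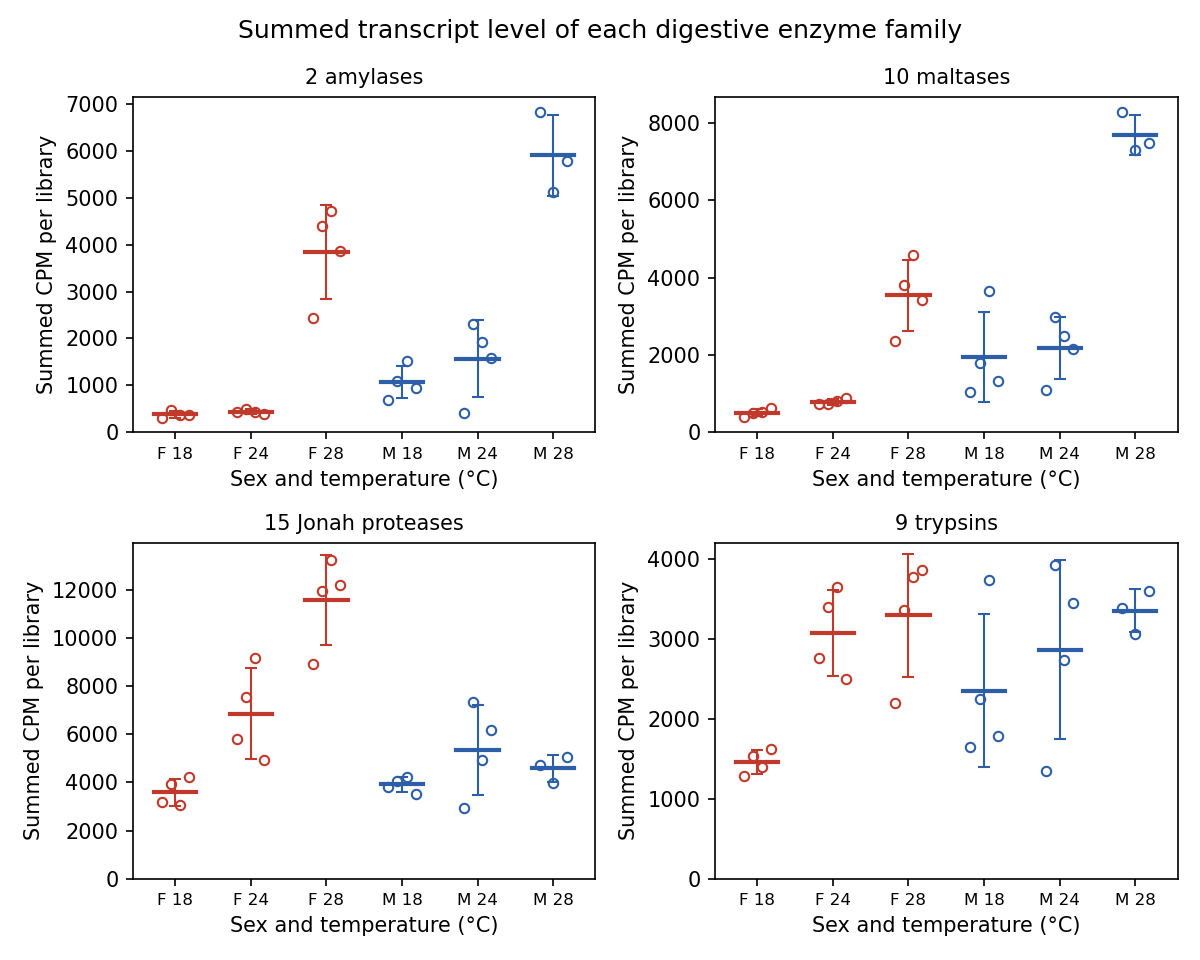
Summed CPM of the members of each family (vertical axis) in each library, by sex (F, females; M, males) and temperature in °C. Open circles are libraries, thick bars are group means and thin bars are 1 SD; amylases and maltases are highest in both sexes at 28 °C, Jonah proteases are highest in females at 28 °C and near their 18 °C level in males, and trypsins in females differ mainly between 18 °C and the other temperatures.

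Per kilobase of exon, which allows levels of different genes to be set side by side, alphaTry was the most abundant member in 5 of the 6 groups, at 1293 ± 121 CPM per kb (SD, n = 4) in females at 18 °C and 2601 ± 196 (n = 3) in males at 28 °C. In females at 28 °C the order was Jon99Cii (3147 ± 523), Jon99Ciii (2337 ± 371) and alphaTry (1925 ± 496), with overlapping ranges of mean ± SD in each neighbouring pair. The counts of Jon99Cii and Jon99Ciii were not whole in any library, so their order depends on how reads were split. In males at 28 °C it was alphaTry, Amy-p (2326 ± 403) and Mal-A1 (2229 ± 67.7), whose ranges of mean ± SD overlap in the first pair and in the second. The least abundant members were betaTry, Jon65Aii, Jon44E, Mal-A3 and Jon66Ci, which took the last 3 places in one group or another.

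The first comparison asks which enzymes differed between the coolest and the warmest flies of each sex. In females at 28 against 18 °C, 31 of 35 members rose and none fell at an adjusted p under 0.01, by edgeR's quasi-likelihood test (p-values adjusted over 9698 features by the Benjamini-Hochberg method). Of all tested features, 21.8% rose and 16.2% fell. In males, 14 members rose and 1 fell, against 10.5% and 19.5% of all features. The median log2 change of the members was 1.92 in females and 0.62 in males, against -0.01 and -0.08 for all features. All 12 amylases and maltases passed in males, and 10 of them in females, whereas 21 of the 23 proteases tested rose in females and 3 in males. In males 11 members were called when only the 2 groups were fitted, without Jon25Bi, Mal-A2, Mal-A6 and Mal-B2, and 11 with temperature as a linear term, without Jon25Bi, Mal-A2, Mal-A3, Mal-A4 and Mal-A6.

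Amylases rose in both sexes. Amy-p, the proximal of the paired amylase genes, had CPM of 174, 294, 245 and 218 in the 4 female libraries at 18 °C, 261, 294, 270.4 and 235 at 24 °C and 1557, 2629, 2874 and 2405 at 28 °C. In males it had 474, 736, 967 and 639 at 18 °C, 301, 1589, 1332 and 1058 at 24 °C and 4623, 3314 and 3703 at 28 °C. Every library at 28 °C was above every library of the same sex at 18 or 24 °C, and male 24 °C replicate 1 was the low one of its group. The log2 change from 18 to 28 °C was 3.35 ± 0.35 (SE) in females, a 10.2-fold rise with an adjusted p of 1.58e-07 by edgeR, and 2.46 ± 0.35 in males, a 5.51-fold rise (adjusted p = 1.6e-05). Its copy Amy-d gave 3.33 ± 0.39 and 2.48 ± 0.39, and the sum of both genes, which does not depend on how shared reads were split, gave 3.34 ± 0.36 and 2.47 ± 0.36. The sexes did not differ detectably in this change: for Amy-p it was -0.88 in males less females, with a 95% interval of -1.81 to 0.05 (adjusted p = 0.154, edgeR).

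Among the maltases, 8 of 10 rose in females, and in males 9 rose and 1 fell. Mal-A4 changed most. Its CPM in females was 7.94, 10.8, 8.86 and 13.8 at 18 °C, 8.08, 8.17, 7.80 and 8.31 at 24 °C and 229, 293, 465 and 181 at 28 °C. In males it was 22.1, 31.4, 62.7 and 33.4 at 18 °C, 23.995, 54.006, 40.1 and 50.1 at 24 °C and 279, 164 and 198 at 28 °C. The 28 °C libraries of each sex lay above all others of that sex, and the cooler females lay below every male library. The log2 change was 4.82 ± 0.35 in females (28.2-fold, adjusted p = 1.46e-09, edgeR) and 2.51 ± 0.33 in males (5.70-fold, adjusted p = 6.07e-06). The rise was smaller in males, and the tested difference, males less females, was -2.30 ± 0.46 (adjusted p = 0.000726).

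Mal-A3 is the neighbour of Mal-A4. It went from 6.98 ± 1.94 CPM (SD, n = 4) in females at 18 °C to 195 ± 52.6 at 28 °C, a log2 change of 4.80 ± 0.30, and from 24.952 ± 7.15 to 118 ± 13.4 (n = 3) in males, a change of 2.24 ± 0.28. The difference between these changes was -2.56 ± 0.39 (adjusted p = 7.52e-05, edgeR). Mal-A1 rose by 3.53 ± 0.43 in females, to 1658 ± 459 CPM, and by 2.11 ± 0.42 in males, to 4069.8 ± 124. Summed with Cyp4e1 its changes were 3.48 ± 0.42 and 2.09 ± 0.42. Mal-A6 rose by 2.72 ± 0.43 and 1.77 ± 0.43, Mal-A7 by 3.73 ± 0.39 and 2.38 ± 0.37, Mal-A8 by 3.06 ± 0.32 and 2.23 ± 0.32, and Mal-B1 by 1.75 ± 0.33 and 1.95 ± 0.35, in females and males. Mal-B2 rose in males by 1.05 ± 0.24, a call that rests on male 28 °C replicate 1, since its CPM in the 3 male libraries at 28 °C was 495, 219 and 165, and the change was 0.44 and no longer passed without that library. In females it was 0.58 ± 0.23 (adjusted p = 0.0367, edgeR).

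Mal-A5 was the one maltase that fell in males. Its CPM in males was 85.5, 89.4, 84.3 and 80.9 at 18 °C, 55.6, 63.7, 67.5 and 65.2 at 24 °C and 59.1, 62.1 and 64.3 at 28 °C. In females it was 119.7, 122, 133 and 139.5 at 18 °C, 144, 145, 142 and 142 at 24 °C and 132, 122, 125 and 126 at 28 °C. Male libraries at 24 and 28 °C were all below those at 18 °C, all male libraries were below all female ones, and the groups were tight. The log2 change from 18 to 28 °C was -0.46 ± 0.07 in males (adjusted p = 2.24e-05, edgeR) and -0.03 ± 0.06 in females (adjusted p = 0.753), and the tested difference was -0.43 ± 0.09 (adjusted p = 0.00123). The call depends on the scaling: the difference was -0.24 with DESeq2 and -0.22 with library totals and passed in neither, and it was -0.11 in the fit without female 28 °C replicate 1, in which TMM scaling moved the median of all features for this contrast from -0.14 to 0.17. With the scaling factors held it lay between -0.47 and -0.40 and passed in all 23 fits that each left out 1 library.

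Jonah proteases rose in females and mostly did not pass in males. In females 13 of the 14 tested rose, with a median log2 change of 1.80, and in males 2 did, with a median of 0.07. Jon99Ci was the exception that rose strongly in both. Its CPM in females was 16.6, 22.3, 15.5 and 22.5 at 18 °C and 206, 321, 419 and 304 at 28 °C. The male values were 24.7, 25.1, 15.5 and 34.7 at 18 °C and 321, 269 and 335 at 28 °C. No library at 18 °C came near any at 28 °C. The log2 change was 4.02 ± 0.36 in females (adjusted p = 2.13e-08, edgeR) and 3.62 ± 0.36 in males (adjusted p = 4.12e-07), with a difference of -0.40 (95% interval -1.33 to 0.54, adjusted p = 0.546). Jon25Bi was the other Jonah gene past the threshold in both sexes, at 2.88 ± 0.46 in females and 1.63 ± 0.48 in males, and the male call held in 10 of the 23 fits that each left out 1 library, or in 5 with the scaling factors held.

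Jon99Fi differed most between the sexes. In females its CPM was 18.1, 30.8, 28.1 and 51.9 at 18 °C, 59.9, 111, 176 and 94.2 at 24 °C and 383, 441, 581 and 516 at 28 °C, and each group lay wholly above the one before. In males it was 5.29, 11.6, 79.8 and 30.004 at 18 °C, 15.4, 16.4, 8.46 and 25.2 at 24 °C and 6.44, 6.61 and 11.954 at 28 °C. The male groups overlapped, and male 18 °C replicates 1 and 3 were the extremes of a wide group. The log2 change was 3.90 ± 0.58 in females (adjusted p = 1.19e-05, edgeR) and -1.93 ± 0.64 in males (adjusted p = 0.0184), and the difference was -5.83 ± 0.86 (adjusted p = 5.11e-05). The male value was -0.91 without male 18 °C replicate 3. The counts of Jon99Fi and its copy Jon99Fii were not whole in 22 and 23 libraries, and their sum was whole in 3 of 23, so the pair does not account for all the reads they share. The sum of both changed by 1.70 ± 0.29 in females and -0.52 ± 0.31 in males, with a difference of -2.21 ± 0.42 (adjusted p = 0.000531).

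Other Jonah genes rose in females and did not pass in males. Jon99Ciii went from 845 ± 143 to 2898 ± 460.3 CPM in females (log2 change 1.78 ± 0.29) and from 596 ± 226 to 780.3 ± 219 in males (0.39 ± 0.30, adjusted p = 0.307, edgeR). Its sum with Jon99Cii, which was whole in 3 of 23 libraries, changed by 1.80 ± 0.29 in females and 0.49 ± 0.30 in males (adjusted p = 0.19). Jon65Aiv went from 599.9 ± 135 to 1594 ± 351 in females (1.41 ± 0.31) and from 1088 ± 500.4 to 1313 ± 167 in males (0.27 ± 0.33, adjusted p = 0.53). For neither was the difference between the sexes past the threshold. For Jon66Ci it was, at -3.39 ± 0.74 (adjusted p = 0.00162, edgeR), from changes of 2.73 ± 0.50 in females and -0.66 ± 0.55 in males. Its CPM in males at 18 °C ran from 4.31 to 29.2. The counts of Jon66Ci were not whole in 20 of 23 libraries, so its values depend on how shared reads were split, and no sum was made. Jon25Biii gave 2.80 ± 0.39, 0.24 ± 0.40 and a difference of -2.56 ± 0.56 (adjusted p = 0.00165). Jon74E was the 1 tested Jonah gene that did not pass in females, at 0.13 ± 0.32 (adjusted p = 0.768). Jon65Aii, below the filter, had CPM of 6.95, 11.9, 6.36 and 9.42 in females at 18 °C and 9.0005, 10.8, 8.38 and 10.1 at 28 °C, and of 5.04, 4.06, 2.56 and 2.67 in males at 18 °C and 0.698, 0.457 and 1.28 at 28 °C. It was not tested, and its low libraries were males at 28 °C.

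Trypsins rose in females, in 8 of 9 cases, and in 1 of 9 in males. alphaTry was the female exception. Its CPM was 1019, 1136, 1044 and 1248 at 18 °C, 1944, 2463, 2555 and 1803 at 24 °C and 1077, 1649, 1809 and 2088 at 28 °C in females, so that all libraries at 24 °C were above those at 18 °C and the 28 °C group overlapped both. The log2 change from 18 to 28 °C was 0.57 ± 0.28 in females (adjusted p = 0.0912, edgeR) and 0.34 ± 0.30 in males (adjusted p = 0.364). deltaTry went from 84.1 ± 12.963 to 817 ± 173 CPM in females (3.28 ± 0.29, adjusted p = 1.81e-08) and from 122 ± 46.4 to 452 ± 40.8 in males (1.88 ± 0.29, adjusted p = 3e-05). These genes share reads, and the sum of alphaTry, betaTry, gammaTry, deltaTry, CG30025 and CG30031 changed in females by 1.24 ± 0.28 (adjusted p = 0.000922), whereas the male change was 0.57 ± 0.29 (adjusted p = 0.125). etaTry gave 1.13 ± 0.28 in females, -0.96 ± 0.31 in males (adjusted p = 0.0152) and a difference of -2.09 ± 0.42 (adjusted p = 0.000759).

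**Figure D2:**
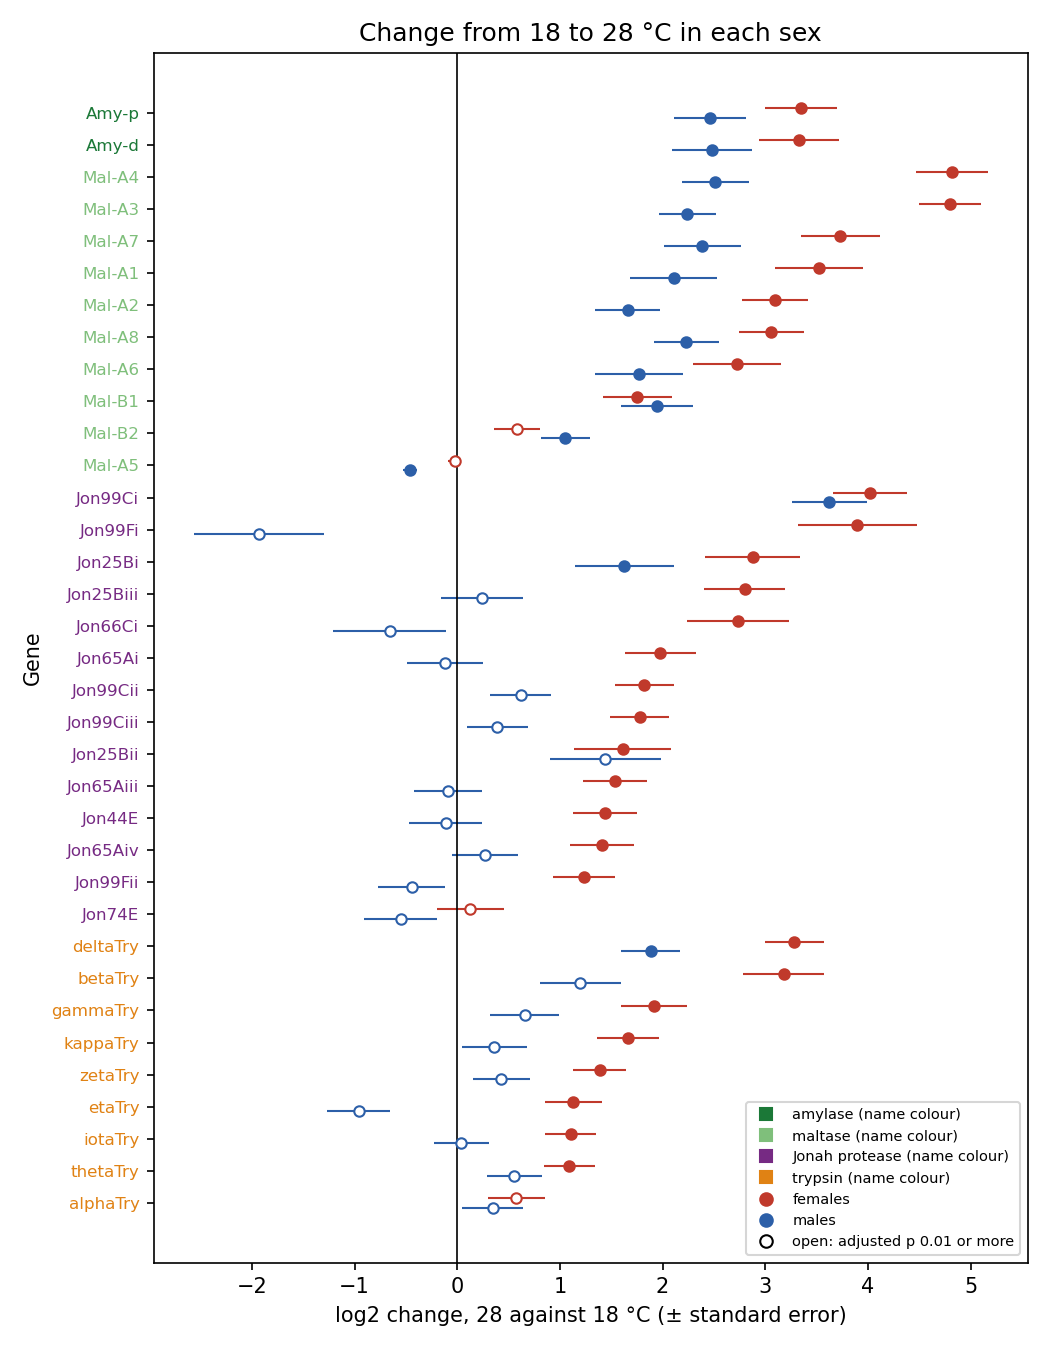
Log2 change from 18 to 28 °C (horizontal axis) with its standard error for each of the 35 tested members (vertical axis), in females (red) and males (blue); filled points have an adjusted p under 0.01. Amylases and maltases other than Mal-A5 lie to the right of 0 in both sexes, while most proteases lie to the right in females and near 0 in males, with Jon99Fi at 3.90 in females and -1.93 in males.

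Whether the sexes differed in the change was tested as an interaction. Of 35 members, 11 had a smaller log2 change in males than in females and none a larger one, against 13.8% and 6.11% of all features. The median difference was -1.26 for the members and -0.14 for all features. The 11 were 6 Jonah proteases (Jon99Fi, Jon66Ci, Jon25Biii, Jon65Ai, Jon99Fii and Jon65Aiii), the trypsins etaTry and deltaTry, and the maltases Mal-A3, Mal-A4 and Mal-A5. For the summed set that shares reads with deltaTry the difference was -0.67 ± 0.40 and did not pass (adjusted p = 0.205, edgeR). Leaving out female 18 °C replicate 1 gave 6 calls, and leaving out any one of female 18 °C replicates 2 and 4, female 24 °C replicates 1 and 4 and female 28 °C replicates 1 and 4 gave 7, as did scaling with library totals. In these 7 female fits the library left out and the TMM scaling changed together, since the median of all features went to between 0.14 and 0.17. With the scaling factors held, an alternative added after the data were seen, they gave 8 to 13 calls. Leaving out male 28 °C replicate 2 gave 7 under either scaling, with the median at -0.14. TMM scaling moved the median of all features for this contrast, which ran from -0.16 to 0.17 over the 23 libraries used in turn as reference, and 7 of the 11 calls held under every one.

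The families called were not the same in the 2 temperature steps, and the difference between the steps was not itself tested. From 18 to 24 °C, at the same age, 9 of 35 members rose in females and none fell, against 15.8% and 8.70% of all features. These were 7 of the 9 trypsins and the proteases Jon65Aiii and Jon65Aiv, with no amylase or maltase among them. All 4 female libraries at 24 °C lay above all 4 at 18 °C for every one of the 9 trypsins, and the same held for 22.3% of all features. deltaTry rose by 1.82 ± 0.27 (adjusted p = 7.43e-05, edgeR), betaTry by 2.13 ± 0.40 (adjusted p = 0.000507) and alphaTry by 0.98 ± 0.28 (adjusted p = 0.00903), and the summed set that shares reads rose by 1.10 ± 0.28 (adjusted p = 0.00427). Jon65Aiv rose by 1.46 ± 0.31 (adjusted p = 0.00121) and Jon65Aiii by 1.73 ± 0.31 (adjusted p = 0.000371). Amy-p, by contrast, stood at 0.19 ± 0.32 (95% interval -0.44 to 0.82) and Mal-A4 at -0.36 ± 0.33 (adjusted p = 0.389). Among the maltases that did not pass, Mal-A1 stood at 1.15 ± 0.39 (adjusted p = 0.0244) and Mal-A8 at 0.90 ± 0.30 (adjusted p = 0.0209), and for 4 of the 10 all female libraries at 24 °C lay above those at 18 °C. The alphaTry call held in 6 of the 23 fits without 1 library and was lost with library totals and with both other filters. Markers of other cells rose in this step too, the muscle markers Mhc by 0.45 and Act57B by 0.91 among them. Leaving out female 18 °C replicate 1 gave 4 calls in place of 9, or 5 with the scaling factors held, leaving out female 24 °C replicate 3 gave 5, and leaving out male 18 °C replicate 3 gave 14.

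In males, 24 against 18 °C gave 3 calls: Jon99Ci (1.61 ± 0.33, adjusted p = 0.00461, edgeR) and thetaTry (1.21 ± 0.25, adjusted p = 0.00451) rose and Mal-A5 fell (-0.43 ± 0.06, adjusted p = 0.00026). Of all features, 1.79% rose and 1.88% fell. Leaving out male 18 °C replicate 3, male 24 °C replicate 2 or male 24 °C replicate 3 left 1 call. A fit of the 2 groups alone by edgeR left none, with 9 of 35 members, and 27.0% of all features, at an unadjusted p under 0.05. DESeq2 called 6 of 35 members and 7.98% of all features.

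From 24 to 28 °C, 21 members rose in females and none fell, against 12.1% and 15.5% of all features, and 12 rose and none fell in males, against 3.95% and 7.46%. These comparisons share their 24 °C libraries with those above. In females both amylases, 8 maltases and 10 of 14 Jonah proteases rose, and of the trypsins deltaTry alone passed, at 1.46 ± 0.27 (adjusted p = 0.000221, edgeR). The summed set that shares reads with deltaTry stood at 0.14 ± 0.27 (adjusted p = 0.701), so the deltaTry rise in this step may depend on how reads were split. In males both amylases, all maltases except Mal-A5, and Jon99Ci rose. Mal-A4 rose by 5.17 ± 0.36 in females and 2.34 ± 0.32 in males in this step, Mal-A3 by 5.13 ± 0.31 and 1.76 ± 0.27, and Amy-p by 3.16 ± 0.35 and 1.86 ± 0.35. The male count was 4 when only the libraries of the 2 male groups were fitted. Both amylases, Mal-A1, Mal-A3, Mal-A6 and Jon99Ci were among the genes that did not pass in that fit.

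**Figure D3:**
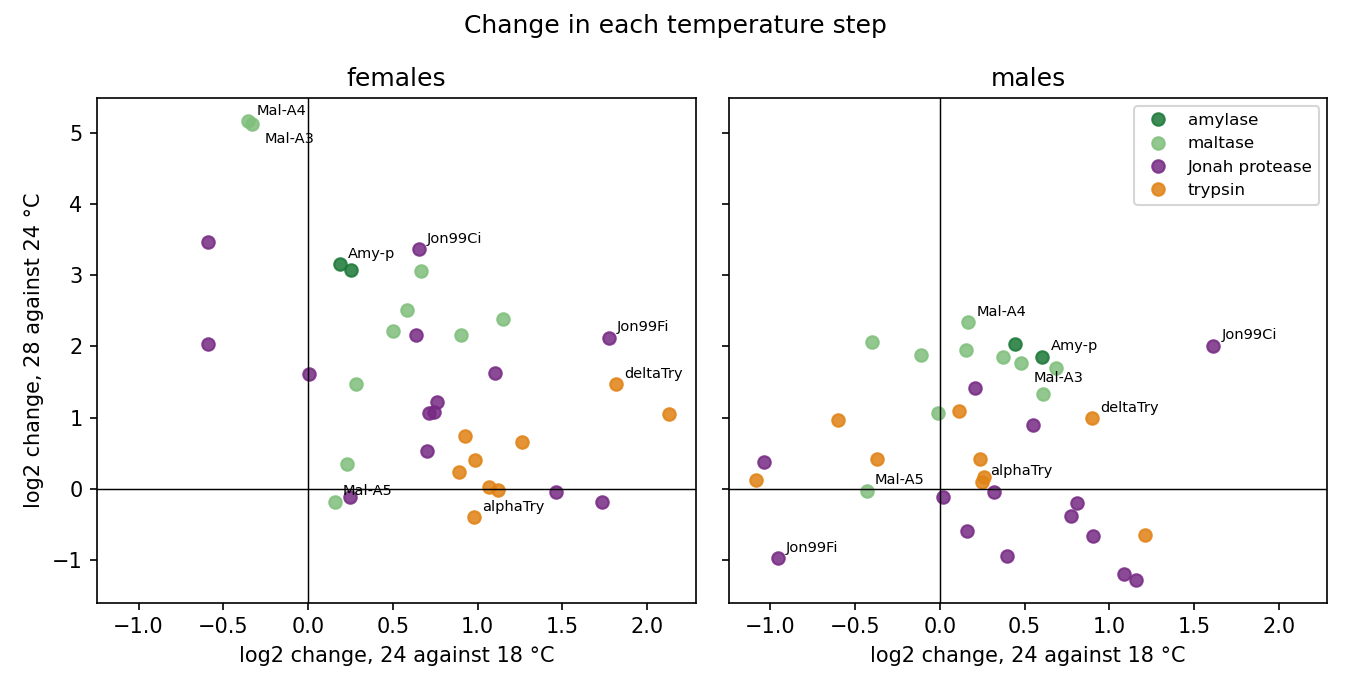
Log2 change from 18 to 24 °C (horizontal axis) against that from 24 to 28 °C (vertical axis) for the 35 tested members, in females (left) and males (right), with colours for the families. The axes share the 24 °C libraries; in females the trypsins lie to the right and mostly low, and the amylases and Mal-A4 and Mal-A3 lie high and near 0 on the horizontal axis.

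Levels also differed between the sexes, though in a smaller share of the members than of all features. Averaged over the 3 temperatures, 12 members were higher in males and 11 lower, against 47.2% and 39.5% of all features, so that 23 of 35 members and 86.7% of features were called. Within a family the calls mostly had the same direction. Both amylases and 9 maltases were higher in males and Mal-A5 was lower, whereas 8 Jonah proteases and the trypsins iotaTry and zetaTry were lower in males and Jon99Ci was higher. These are averages and need not hold at each temperature. At 28 °C the mean CPM of Mal-A3 was 195 in females and 118 in males, and that of Mal-A4 was 292 and 214. The log2 difference, males less females, was 2.64 ± 0.21 for Mal-A7 (adjusted p = 1.18e-10, edgeR), 1.94 ± 0.18 for Mal-A8 (adjusted p = 9.48e-10) and 1.44 ± 0.19 for Amy-p (adjusted p = 3.82e-07). Jon99Fi was lower in males, with a log2 difference of -2.87 ± 0.34 (adjusted p = 7.43e-08), and the sum with Jon99Fii gave -1.21 ± 0.17 (adjusted p = 8.3e-07). At 18 °C, however, the mean CPM of Jon99Fi was 32.2 ± 14.2 (SD) in females and 31.7 ± 33.7 in males. Mal-A5 was lower in males too, at -0.94 ± 0.04 (adjusted p = 4.04e-16). The calls of Jon99Ci, at 0.57 ± 0.19, and of Mal-B1, at 0.59 ± 0.19, were lost with library totals and with both other filters, that of Jon99Ci also with DESeq2, and they held in 6 and 8 of the 23 fits without 1 library.

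**Figure D4:**
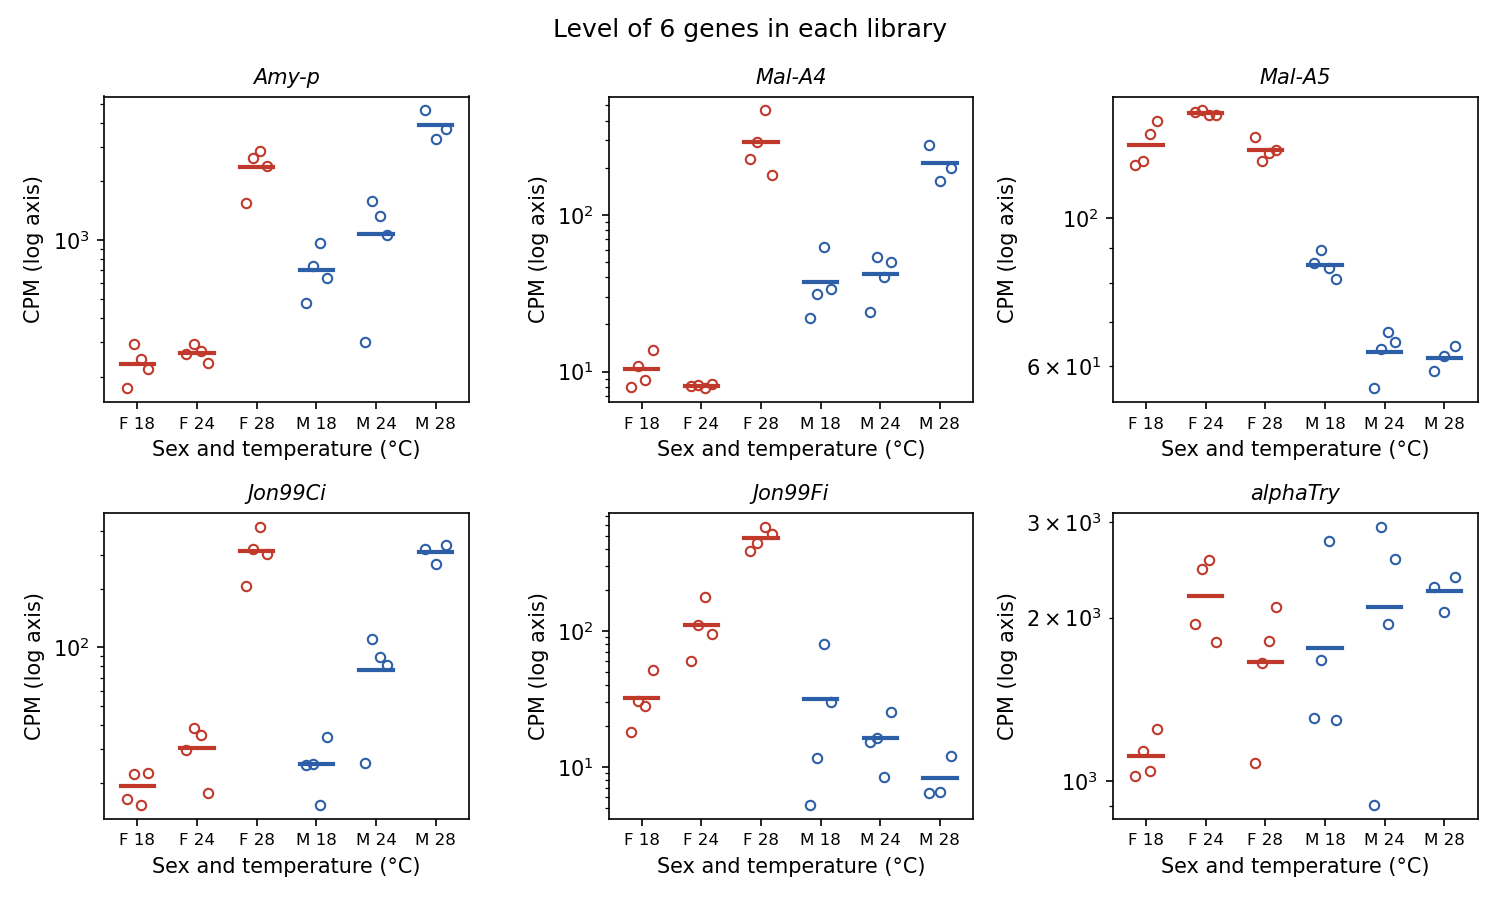
CPM on a log axis (vertical) in each library for Amy-p, Mal-A4, Mal-A5, Jon99Ci, Jon99Fi and alphaTry, by sex (F, females; M, males) and temperature in °C. Circles are libraries and bars are group means; Amy-p, Mal-A4 and Jon99Ci are highest at 28 °C in both sexes, Jon99Fi is highest in females at 28 °C and lowest in males at 28 °C, and Mal-A5 differs mainly by sex.

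Other digestive genes were read from a list of 17 lipases, carboxypeptidases, proteases and a glucosidase, of which 12 could be tested. In females at 28 against 18 °C 10 of them rose and none fell, with a median log2 change of 1.44. Of all features, 21.8% rose and 16.2% fell in females, and 10.5% rose and 19.5% fell in males. In males CG6283, a lipase gene, rose by 1.21 and Ser7, a serine protease gene, by 0.56, and the serine protease gene Ser6 fell by 1.33, with adjusted p of 0.00695, 0.00403 and 0.000538 in edgeR's test. The difference between the sexes in this change was past the threshold in 6 of the 12, all lower in males, against 13.8% of all features.

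Counting both directions, genes known to control digestive enzymes were called in about the same share as all features. GATAe, a GATA factor required for midgut gene expression, rose in females by 1.42 (adjusted p = 8.55e-06, edgeR) and was at -0.11 in males (adjusted p = 0.701), with a tested difference of -1.53 (adjusted p = 0.000611). The activin-like ligand daw, known to repress amylase and maltase genes when flies eat sugar, fell in males by 1.02 (adjusted p = 2.76e-05) and was at -0.39 in females (adjusted p = 0.0244). Its receptor gene babo fell in both sexes, by 0.27 in females and 0.36 in males, and sug, a sugar-induced transcription factor gene that acts on the same enzymes, fell in males by 1.76 (adjusted p = 0.00121) and was at -0.53 in females (adjusted p = 0.21). Of the 9 regulators listed, 3 rose and 1 fell in females, where 21.8% of all features rose and 16.2% fell. In males none rose and 3 fell, where 10.5% of all features rose and 19.5% fell. The part of these regulators in the enzyme results was not tested.

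Some markers of gut cells rose in females from 18 to 28 °C. In this comparison 21.8% of all features rose and 16.2% fell in females, against 10.5% and 19.5% in males. The enterocyte markers Myo31DF, mex1 and nub all rose from 18 to 28 °C in females, by 0.64, 1.46 and 1.64, and none of the 3 passed in males, at 0.41, -0.44 and -0.36. Their summed CPM ran from 113 to 139 in females at 18 °C, from 175 to 203 at 24 °C and from 175 to 258 at 28 °C, and in males from 149.5 to 345, from 133 to 206 and from 222 to 254. Among the progenitor markers esg rose in females and Sox21a did not pass, both copper cell markers, lab and Vha100-4, rose in females, and of 6 enteroendocrine markers 2 rose and 1 fell in females while 2 fell in males. Fat body markers moved too: apolpp and FASN1 rose in females, where the summed CPM of apolpp, FASN1 and Lsp2 lay between 975 and 1532 at 18 °C and between 4271 and 6512 at 28 °C, and Yp1, Yp2 and Yp3 rose in females as well. The muscle markers Mhc and Act57B passed in neither sex from 18 to 28 °C. From 18 to 24 °C, females had rises in 2 of 3 enterocyte markers (mex1 and nub), both progenitor markers and 5 of 6 enteroendocrine markers. Rises were also called for 1 of 2 copper cell markers, both muscle markers and FASN1, and none of the 3 yolk protein genes passed. Of all features, 15.8% rose and 8.70% fell in females in this step. In males no marker of the gut, muscle or fat body passed in this step, and 1 yolk protein gene rose. Of all features, 1.79% rose in males. From 24 to 28 °C, when 21 of the 35 members rose in females, no enterocyte, progenitor or copper cell marker passed in females. There 3 of 6 enteroendocrine markers and 1 of 2 muscle markers fell, and apolpp, FASN1 and all 3 yolk protein genes rose. Of all features, 12.1% rose and 15.5% fell in females. No marker passed in males from 24 to 28 °C. The part of these markers in the enzyme results was not tested.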

How the data were processed

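Poly-A RNA of 23 whole-fly pools was sequenced. The authors mapped cleaned reads to the fly reference (dm6, per the labels' processing notes) with Bowtie2 and computed expected counts with RSEM, which are estimates that divide shared reads among genes and are the deposited values. Versions of these tools are not given in the sources used here. All 23 columns were matched to samples by their labels, and 0 columns of other samples were left over. Pools of 1 group are separate pools of flies, and intervals cover the spread between them.

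Expected counts were rounded to whole numbers for testing. The 9698 of 11152 features that reached 0.5 CPM in all libraries were fitted with 1 mean per group of sex and temperature by edgeR 4.0.16 (R 4.3.3, limma 3.58.1), with TMM scaling, the quasi-likelihood test, Benjamini-Hochberg adjustment over all features and a threshold of 0.01. The study used a Poisson model of the counts, which was replaced here by the quasi-likelihood test and was not rerun. Temperature as a linear term, in the same quasi-likelihood test, was run as an alternative. The biological coefficient of variation was 0.141. CPM in the text uses TMM-scaled library sizes. Alternatives were DESeq2 1.42.0, library totals, each library as TMM reference, other filters, a threshold of 0.05, a replicate block, only the 2 groups compared and each library left out. Summing genes that share reads, and leaving out each library with the TMM factors of all libraries held, were added after the data were seen. On simulated counts for 9698 features, the test for females at 28 against 18 °C recovered 93 of 100 genes changed by 1 on the log2 scale and 100 of 100 changed by 2, and for males 89 and 96 of 100, with 1 false call in each. The changed genes were drawn at random from all tested features. Replicates of the members varied more than those of most features, so these rates need not hold for the members.

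The members and gene lists were chosen with earlier results of these data known. Genes named with values are the 2 members of highest mean CPM in each family, the 4 largest rises and falls per sex from 18 to 28 °C, the 3 largest differences of that change between the sexes, the 3 largest differences between the sexes, and members below the filter; others were named after their values were seen. Gene IDs of all 36 members gave the same symbol in the reference annotation, which holds 40 genes that fit the rule. Of these, lambdaTry, epsilonTry, Amyrel and Jon66Cii were not analysed here, and gonad and dosage compensation markers were not used here.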

Additional observations from a re-analysis of the deposited data

Results flagged for a closer look

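A single value stood far from the rest of its group. Mal-A7 had 40.5 CPM in female 18 °C replicate 4, where the nearest library of the group had 15.7. Of 110 groups of 4 libraries examined in this way 1 stood out, and chance gives about 1 in 20.

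The log2 change from 18 to 28 °C differed between the sexes in 11 members by the interaction test, with the male change less the female one given here. Among the proteases it was -5.83 for Jon99Fi, -3.39 for Jon66Ci, -2.56 for Jon25Biii, -2.10 for Jon65Ai, -2.09 for etaTry, -1.67 for Jon99Fii, -1.63 for Jon65Aiii and -1.40 for deltaTry. The summed set that shares reads with deltaTry gave -0.67 and did not pass. Among the maltases it was -2.56 for Mal-A3, -2.30 for Mal-A4 and -0.43 for Mal-A5. In fits that each left out 1 of the 23 libraries, the call was kept in 3 fits for deltaTry, 5 for Jon65Aiii, 8 for Jon99Fii, 16 for Mal-A5 and 19 for Jon65Ai, and with the scaling factors held in 5, 6, 12, 23 and 21 of them.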

How the results depend on the processing

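The count of members called in females from 18 to 28 °C (31) ran from 26 to 32 and that in males (15) from 13 to 17 when each library was left out, and the male count was 11 with only the 2 groups and 11 with temperature as a linear term. The count for the difference between the sexes in this change (11) was 7 with library totals, 7 with the TMM reference giving fewest calls, 5 with temperature as a linear term and 20 at an adjusted p under 0.05, and ran from 6 to 13 without single libraries, or from 7 to 13 with the scaling factors held, which was added after the data were seen. From 18 to 24 °C the female count (9) was 17 at 0.05 and 14 with only the 2 groups, and ran from 4 to 14 without single libraries, while the male count (3) was 6 with DESeq2, 7 at 0.05 and 0 with only the 2 groups, and ran from 1 to 4. From 24 to 28 °C the female count (21) ran from 15 to 23, and the male count (12) was 4 with only the 2 groups and ran from 8 to 14. The count between the sexes (23) ran from 21 to 24. With the replicate block the counts from 18 to 24 °C were 15 in females and 5 in males, and all calls of the fit without it were kept. The main fit did not pair libraries by replicate number, which the labels give only as a biological replicate. Of 55 same-numbered pairs, 25 had a correlation of deviations above 0.1 (mean 0.0988). Among 165 pairs of different number 32 did (mean -0.034), and 9 of 23 libraries correlated best with their own number. Same-numbered libraries were thus somewhat more alike on average, and whether they shared any handling is not known. Changes that did not pass and turned sign were Jon74E in females, at -0.015 with DESeq2, -0.11 with the lowest TMM reference and from -0.56 to 0.32 without single libraries, Mal-A5 in females, from -0.27 (which passed) to 0.016, and in males Jon25Biii, from -0.075 to 0.48, and Jon66Ci, from -1.23 to 0.27. For these changes the cause was not tested. The median of all features from 18 to 28 °C in females went from -0.01 with TMM to -0.15 with DESeq2, and the share of higher among called features from 57.3% to 36.5%; for the difference between the sexes it went from -0.14 to 0.06 and from 30.6% to 59.5%, and changes near these sizes depend on the scaling. With read-sharing genes summed, 29 members or sums were tested. From 18 to 28 °C 26 of these were called in females, 13 in males and 9 for the difference between the sexes. With 3 or 4 libraries per group, small changes may not be detectable.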

Other observations

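CG30031, a trypsin-like gene that shares reads with the trypsin cluster and lies outside the symbol rule, had 725 expected counts in female 28 °C replicate 1 and between 0.16 and 2.6 in each of the other 22 libraries. Its neighbour CG30025 had 2736 in that library and 4713 to 6146 in the other females at 28 °C.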
